A study of Rattus norvegicus with 16 samples.

Results

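The genes described here mark GABAergic interneurons, the inhibitory neurons of the hippocampus: Gad1, Gad2, Slc32a1, Sst, Npy, Vip, Calb2, Pvalb and Reln. They were chosen by name, and every array probe whose RefSeq accession belonged to 1 of these 9 genes was taken, which gave 11 probes of the 30367 on the array. The array held 15715 named rat genes, and 8 of the 9 were bright enough to be tested among 18173 features (11093 named genes and 7080 probes without a gene name). Vip was not tested, because in no group was its probe well above background on every array.

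Interneurons are a minority of hippocampal neurons and release GABA, the main inhibitory transmitter of the brain. GABA is made from glutamate by the decarboxylases GAD67 and GAD65 (encoded by Gad1 and Gad2), and is loaded into synaptic vesicles by the transporter VGAT (Slc32a1). Subtypes of these cells are told apart by the peptides they release (somatostatin, neuropeptide Y, vasoactive intestinal peptide) and by the calcium-binding proteins they hold (calretinin, parvalbumin), and reelin is a secreted glycoprotein made by some interneurons and by Cajal-Retzius cells.

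Cy3-labelled cRNA was hybridised to Agilent rat arrays, 1 sample to an array. According to the labels, the samples were primary neurons from the hippocampus of Sprague-Dawley rats at embryonic day 18, in 5 groups of 3 samples: untreated, and treated with 5 µM hydroxyurea for 2, 6, 12 or 24 h. Hydroxyurea inhibits ribonucleotide reductase, the enzyme that makes deoxyribonucleotides. The treatment medium lacked antioxidants, and the growth protocol and the design text give somewhat different culture ages. The extraction protocol names hippocampal tissue instead of cultures, and nothing states that replicates came from separate cultures, so p-values measure only the spread between these samples. In such mixed RNA, fewer cells of a type and less RNA per cell cannot be told apart.

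The arrays numbered 16, on 2 slides: RNA of untreated replicate 1 was measured on each slide, and both arrays were averaged into 1 sample. Well above background were 64.7% to 70.4% of the probes of an array, and 0 spots were saturated. The coefficient of variation between spots of the same probe was 3.6% to 7.38% on 14 arrays, 22.4% on 12 h replicate 3 and 11.9% on 1 of the arrays of untreated replicate 1. Sample 12 h replicate 3 stood apart from the others, at -67.2 on the first principal component against -5.2 to 11.6. In the deposited value table, 24 h replicate 1 held the values of the scanner file of 24 h replicate 3 and the reverse, with a correlation over probes of 0.991 to their own files. Samples are named here by the labels of their scanner files, and results that depend on these 2 samples are also given without the 24 h group and from the deposited values. Genes of other cell types were on the arrays as well: 10 of 12 excitatory neuron markers, 10 of 10 astrocyte, 7 of 8 oligodendrocyte lineage, 4 of 8 microglia and 5 of 8 endothelial and mural markers passed the filter on dim probes. The microglial genes Itgam and Ptprc and the endothelial genes Cldn5 and Flt1 were well above background on 0 arrays.

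Levels are log2 processed signals relative to the 75th percentile of the array's signals, so 0 is that percentile and 1 unit is a 2-fold change. A level belongs to its own probe and says nothing of 1 gene's abundance against another's.

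Promoter windows were read from RefSeq (assembly GRCr8), and 8 of the 9 genes matched, all but Calb2. The windows of Sst, Npy, Gad2 and Slc32a1 ran from 250 bases before to 50 after the gene's listed start. Those of Gad1, Vip, Reln and Pvalb were placed otherwise against it, and that of Pvalb lay wholly inside the gene. The windows of Sst and Npy are shown, because these 2 peptide genes were the members called by replicate number in more than 1 of the fits described further on. The Sst window lies on the plus strand at chr11:90461296-90461595 and the Npy window on the plus strand at chr4:80211861-80212160, both printed 5′ to 3′ with motif matches in capitals.
Sst: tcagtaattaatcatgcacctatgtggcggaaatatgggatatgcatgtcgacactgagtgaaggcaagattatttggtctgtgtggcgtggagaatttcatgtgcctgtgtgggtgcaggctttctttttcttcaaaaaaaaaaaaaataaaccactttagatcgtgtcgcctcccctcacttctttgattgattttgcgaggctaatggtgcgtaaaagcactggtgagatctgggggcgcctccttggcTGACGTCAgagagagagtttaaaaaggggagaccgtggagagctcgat
Npy: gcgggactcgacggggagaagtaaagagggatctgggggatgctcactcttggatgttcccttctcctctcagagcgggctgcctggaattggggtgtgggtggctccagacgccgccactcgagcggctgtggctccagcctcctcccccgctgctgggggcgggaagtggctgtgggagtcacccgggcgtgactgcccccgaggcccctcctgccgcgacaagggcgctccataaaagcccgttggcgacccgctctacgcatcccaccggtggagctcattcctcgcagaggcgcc

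3 motifs were searched on both strands: the cAMP response element (CRE) TGACGTCA, its half-site TGACG, which is contained in it, and the TATA box TATAAA. Sst held a CRE at bases 253 to 260 of its window, a motif found in 612 of 33469 rat promoter windows (1.83%). The half-site lay in the windows of Sst (within its CRE), Slc32a1, Pvalb and Vip, against 21.2% of all windows. The TATA box letters lay in the windows of Gad1 and Vip, against 14.2% of all windows. No match to these letters was found in the Npy, Gad2 and Reln windows. A match is a stretch of letters and was not tested as a site of regulation.

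No member passed the test at any time of hydroxyurea treatment. In limma's moderated test with Benjamini-Hochberg adjustment over the 18173 features, 0 of 8 members were called at 2, 6, 12 or 24 h, over the mean of the 4 times, or in the F test among the 5 groups, and the share called over all features was 0% in each. At an unadjusted p under 0.05 the members numbered 0 of 8 in each comparison, against 1.19% of all features at 2 h, 0.737% at 6 h, 2.32% at 12 h, 0.858% at 24 h, 1.68% over the mean of the 4 times and 0.875% in the F test. The treated and untreated samples overlapped for all 8 members at all 4 times, while they did not overlap for 6.34%, 3.82%, 5.05% and 2.94% of all features at 2, 6, 12 and 24 h. The members' median difference from untreated was -0.00 at 2 h, -0.01 at 6 h, -0.11 at 12 h and -0.05 at 24 h, beside 0.00, -0.00, 0.02 and 0.01 over all features. Their mean was lower than untreated for 5 of 8 members at 2 h and 6 h and for 7 of 8 at 12 h and 24 h, beside 49.4%, 52.1%, 44.5% and 45.3% of all features, and over the mean of the 4 times for 6 of 8, beside 49%. All these comparisons share the same 3 untreated samples.

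Of the enzymes of GABA synthesis, Gad1 was measured by 2 probes. Its brighter probe, A_64_P084971, read 1.12, 1.13 and 1.51 in untreated replicates 1 to 3, 1.05, 1.09 and 1.35 at 2 h, 1.02, 1.25 and 1.46 at 6 h, 1.00, 1.02 and 1.62 at 12 h, and 1.49, 0.92 and 0.98 at 24 h. The highest sample was replicate 3 in untreated, 2 h, 6 h and 12 h and replicate 1 at 24 h, and the groups overlapped. The group means were 1.25 ± 0.22 (SD, n = 3) untreated, 1.16 ± 0.16 at 2 h, 1.24 ± 0.22 at 6 h, 1.21 ± 0.35 at 12 h and 1.13 ± 0.31 at 24 h. The difference from untreated ran from -0.12 at 24 h to -0.01 at 6 h (SE 0.20, unadjusted p = 0.547 and 0.968, limma), each smaller than the spread between replicates. The dim probe, A_44_P243102, ranged from -6.66 to -5.38 and was well above background on 15 of 16 arrays. Its differences were -0.12, -0.22, -0.20 and -0.31 at 2, 6, 12 and 24 h (SE 0.27).

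Gad2 encodes the isoform held mostly at nerve terminals. Its level was -3.10, -3.00 and -2.70 in untreated replicates 1 to 3, -3.07, -3.14 and -2.59 at 2 h, -3.05, -3.43 and -3.11 at 6 h, -3.01, -3.15 and -2.56 at 12 h, and -2.92, -3.38 and -3.26 at 24 h. Replicate 2 was the lowest sample of its group in 4 of the 5 groups, all but untreated, and the groups overlapped. The largest differences from untreated were -0.27 (95% interval -0.69 to 0.16) at 6 h and -0.26 (-0.68 to 0.16) at 24 h, with unadjusted p of 0.197 and 0.213 and an adjusted p of 1.00 for both (limma). With 3 samples a group, the intervals did not exclude a fall of up to 0.69 at 6 h or a rise of up to 0.45 at 12 h.

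Slc32a1, the vesicular GABA transporter, read 2.79, 2.50 and 2.66 in untreated replicates 1 to 3, 2.53, 2.62 and 2.79 at 2 h, 2.59, 2.69 and 2.91 at 6 h, 2.39, 2.30 and 2.92 at 12 h, and 2.86, 2.20 and 2.75 at 24 h. The highest and lowest samples of all 15 were 12 h replicate 3 and 24 h replicate 2, and every treated group overlapped the untreated range. Its difference from untreated was -0.00 at 2 h, 0.08 at 6 h, -0.12 at 12 h and -0.05 at 24 h (SE 0.19 each). The 12 h interval ran from -0.52 to 0.29.

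**Figure D1:**
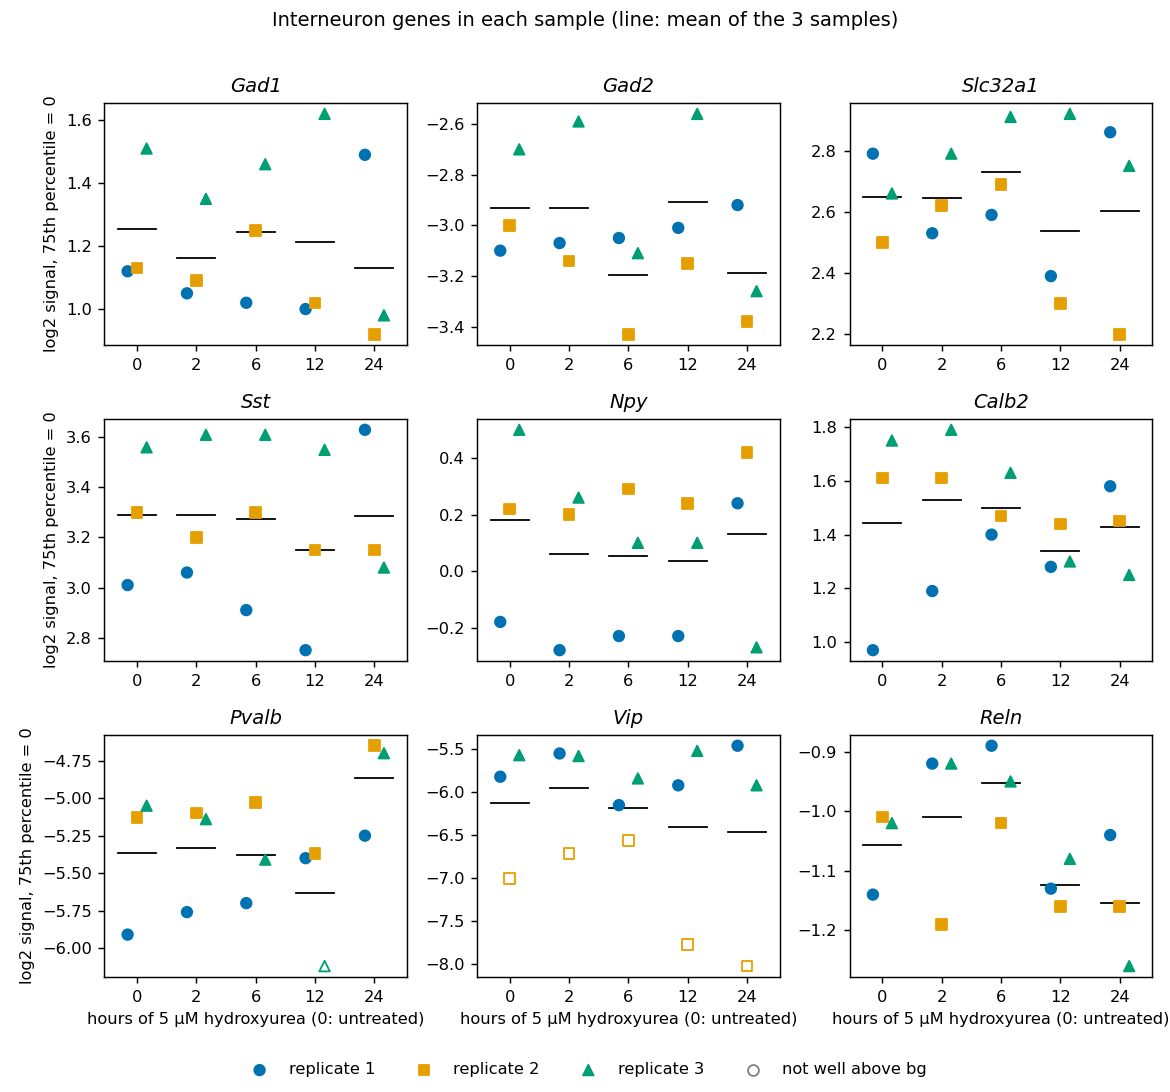
Level of each of the 9 genes (log2 signal relative to the array's 75th percentile) in the 15 samples, by hours of hydroxyurea (0: untreated), with the replicate number as colour and shape and the mean of the 3 samples as a line; open symbols were not well above background. The treated samples overlap the untreated ones for the 8 tested genes, while replicate 1 of Sst and Npy lies lowest in untreated, 2 h, 6 h and 12 h, and replicate 2 of Vip lies lowest in all 5 groups.

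Among the peptides, Sst (somatostatin) read 3.01, 3.30 and 3.56 in untreated replicates 1 to 3, 3.06, 3.20 and 3.61 at 2 h, 2.91, 3.30 and 3.61 at 6 h, 2.75, 3.15 and 3.55 at 12 h, and 3.63, 3.15 and 3.08 at 24 h. Apart from 24 h, each group had its low sample in replicate 1 and its high sample in replicate 3, and the groups overlapped over most of their ranges. The difference from untreated was -0.00 at 2 h, -0.02 at 6 h, -0.14 at 12 h and -0.00 at 24 h (SE 0.24 each). The 95% interval was -0.52 to 0.52 at both 2 h and 24 h, so the data bound a shift of the mean to about that size and no closer.

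Npy (neuropeptide Y) was measured by 2 probes that gave the same picture. The probe printed in 10 copies on each array, A_42_P771373, read -0.18, 0.22 and 0.50 in untreated replicates 1 to 3, -0.28, 0.20 and 0.26 at 2 h, -0.23, 0.29 and 0.10 at 6 h, -0.23, 0.24 and 0.10 at 12 h, and 0.24, 0.42 and -0.27 at 24 h. 1 sample of each group lay below 0, replicate 1 in 4 groups and replicate 3 at 24 h. The differences from untreated were -0.12, -0.13, -0.14 and -0.05 at 2, 6, 12 and 24 h (SE 0.23). The other probe, A_64_P137042, gave -0.11, -0.18, -0.19 and -0.09 (SE 0.24), and also had replicate 1 lowest in untreated (-2.36), 2 h (-2.52), 6 h (-2.49) and 12 h (-2.40) and replicate 3 lowest at 24 h (-2.44).

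Vip (vasoactive intestinal peptide) was near the limit of detection. Its probe read -5.82, -7.00 and -5.57 in untreated replicates 1 to 3, -5.55, -6.71 and -5.58 at 2 h, -6.15, -6.56 and -5.84 at 6 h, -5.92, -7.77 and -5.52 at 12 h, and -5.46, -8.02 and -5.92 at 24 h. Replicate 2 was the lowest sample of its group in all 5 groups. The probe was well above background on 0 of 5 arrays of replicate 2 and on 11 of 11 arrays of replicates 1 and 3. The share of all probes well above background was alike in both sets of arrays, 64.7% to 69.7% and 64.7% to 70.4%.

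Of the calcium-binding proteins, Calb2 (calretinin) read 0.97, 1.61 and 1.75 in untreated replicates 1 to 3, 1.19, 1.61 and 1.79 at 2 h, 1.40, 1.47 and 1.63 at 6 h, 1.28, 1.44 and 1.30 at 12 h, and 1.58, 1.45 and 1.25 at 24 h. The untreated samples spanned a wider range than the samples of 6, 12 or 24 h, which all lay inside it. The differences from untreated were 0.09 at 2 h, 0.06 at 6 h, -0.10 at 12 h and -0.02 at 24 h (SE 0.19). The 2 arrays of untreated replicate 1 read 0.79 and 1.14, a gap of 0.34 for the same RNA, beside a median absolute gap of 0.11 over all features.

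Pvalb (parvalbumin) was a dim probe, well above background on 15 of 16 arrays. Its level was -5.91, -5.13 and -5.05 in untreated replicates 1 to 3, -5.76, -5.10 and -5.14 at 2 h, -5.70, -5.03 and -5.41 at 6 h, -5.40, -5.37 and -6.12 at 12 h, and -5.25, -4.65 and -4.70 at 24 h. The 2 highest samples of all were at 24 h, but 24 h replicate 1 lay below 2 of the 3 untreated samples, so the groups overlapped. The 24 h difference was 0.50 (SE 0.28, 95% interval -0.12 to 1.11), the largest of any member at any time, with an unadjusted p of 0.104 and an adjusted p of 1.00 (limma). It rested in part on single samples, at 0.23 without untreated replicate 1 and 0.69 without 24 h replicate 1. At 12 h the difference was -0.27 (SE 0.28), and the lowest sample, 12 h replicate 3, was the sample not well above background.

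Reln, the extracellular protein that guides neuronal migration and layering, was the steadiest of the 8 tested genes. It read -1.14, -1.01 and -1.02 in untreated replicates 1 to 3, -0.92, -1.19 and -0.92 at 2 h, -0.89, -1.02 and -0.95 at 6 h, -1.13, -1.16 and -1.08 at 12 h, and -1.04, -1.16 and -1.26 at 24 h. All 15 samples lay within 0.37 of each other. Its differences from untreated were 0.05, 0.10, -0.06 and -0.09 at 2, 6, 12 and 24 h (SE 0.10). Its intervals, -0.12 to 0.33 at 6 h and -0.32 to 0.13 at 24 h among them, were the narrowest of the 8 tested genes.

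**Figure D2:**
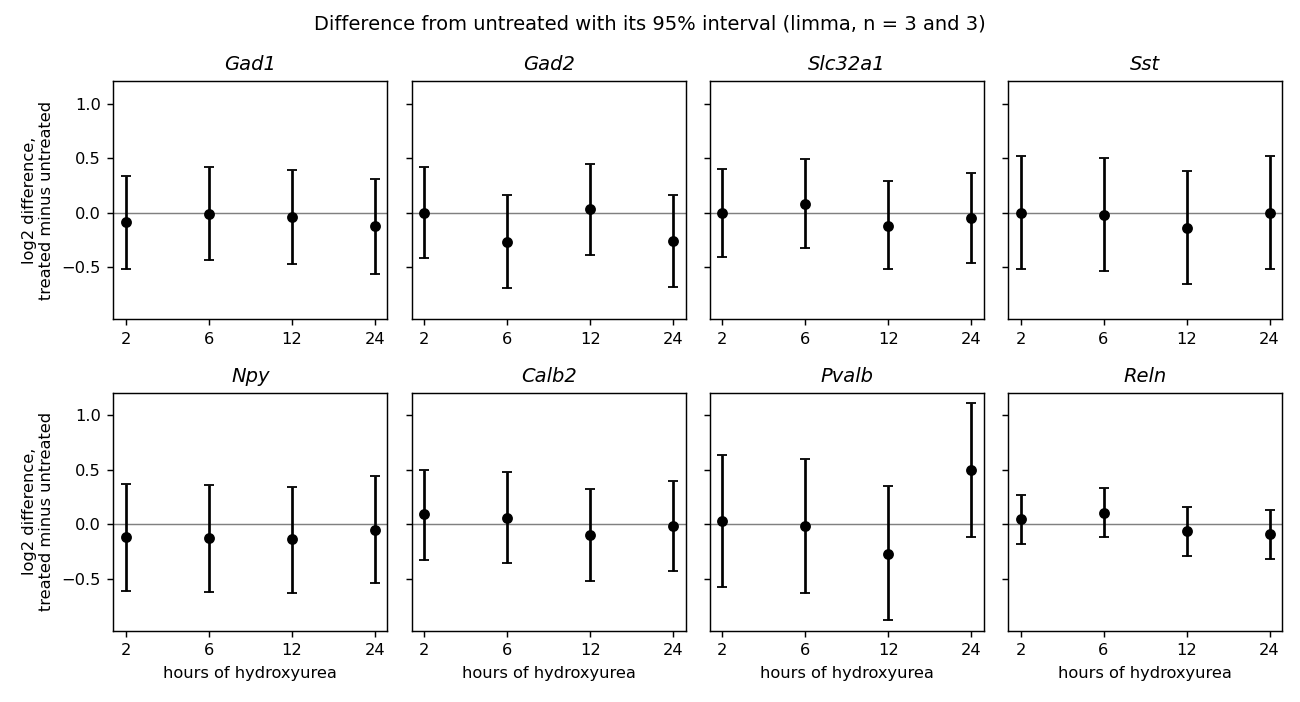
Difference of the mean of 3 treated samples from the mean of 3 untreated samples (log2, treated minus untreated) for the 8 tested genes at 2, 6, 12 and 24 h, with limma's 95% interval as bars. Every interval spans 0, Reln has the narrowest and Pvalb the widest intervals, and the largest point is Pvalb at 24 h, at 0.50.

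Most of these genes varied more between replicate samples than other features of like brightness did. The SD within groups was 0.33 for Sst, 0.30 for Npy, 0.26 for Gad1, 0.26 for Gad2, 0.25 for Slc32a1, 0.25 for Calb2 and 0.39 for Pvalb, beside a median of 0.20 over all features. Among the 1000 features nearest in level, 93.7% had a lower SD than Sst, 88.6% than Npy, 88.3% than Gad1, 85.9% than Calb2, 85.3% than Slc32a1, 77.3% than Pvalb and 68.9% than Gad2. Reln went the other way, with an SD of 0.10, and 6% of its neighbours in level had a lower SD. These shares are a description of the 15 samples, with no test.

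**Figure D3:**
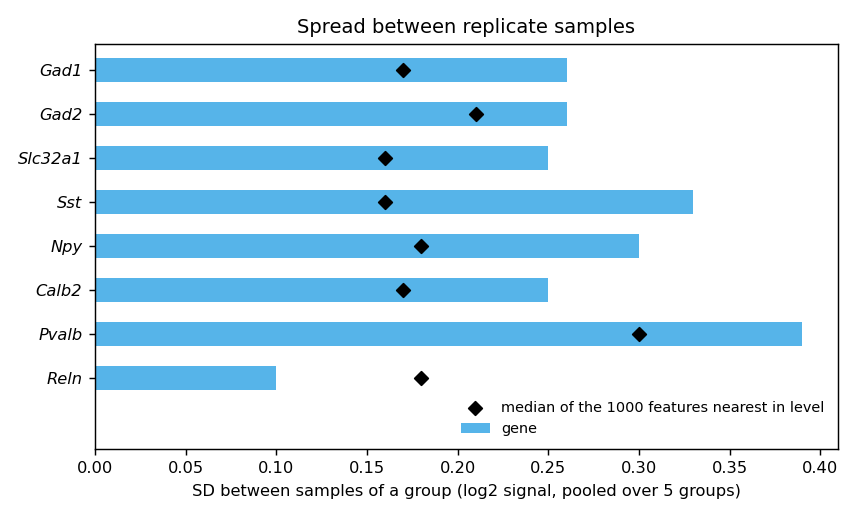
SD between the samples of a group, pooled over the 5 groups (log2 signal), for the 8 tested genes (bars), with the median SD of the 1000 features nearest in level (diamonds). Reln, at 0.10, is the bar shorter than its diamond, and Sst, at 0.33 against 0.16, shows the widest gap.

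The spread of several members followed the replicate number that the labels give. This comparison was added after the values were seen. In the 4 groups other than 24 h, replicate 1 was the lowest sample in all 4 groups for Gad1, Sst, Npy and Calb2, 4 of 8 members, beside 9.18% of all features with 1 replicate number lowest in all 4. Replicate 3 was the highest in all 4 groups for Gad1 and Sst, 2 of 8 members, beside 11.9% of all features. For Gad1 this is the order of its brighter probe. In its dim probe replicate 3 was lowest at 6 h (-6.08) and replicate 2 at 12 h (-6.27), so neither order held in all 4 groups. At 24 h the order of replicates 1 and 3 was turned for Sst, Npy, Gad1 and Calb2, and these are the 2 samples whose columns stand in each other's place in the deposited table. Their slides were turned against the other groups as well, with 24 h replicate 1 on slide 2 and 24 h replicate 3 on slide 1. What turned the order was not tested. Over the 4 other groups, Sst read 2.93 ± 0.14 (SD, n = 4) in replicate 1, 3.24 ± 0.07 in replicate 2 and 3.59 ± 0.03 in replicate 3. Npy read -0.23 ± 0.04 in replicate 1, 0.24 ± 0.04 in replicate 2 and 0.24 ± 0.19 in replicate 3, so replicate 1 stood below the other 2.

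With the replicate number as a term beside the group and the samples as labelled, 0 of 8 members were called by limma's moderated F test after Benjamini-Hochberg adjustment, beside 0.831% of all features. Sst had an adjusted p of 0.583 and Npy of 0.525 in that fit, with 4 of 8 members at an unadjusted p under 0.05, beside 9.1% of all features. Without the 24 h group, Sst and Npy were called, 2 of 8 members beside 1.82% of all features. Replicate 3 exceeded replicate 1 by 0.65 for Sst (SE 0.08, adjusted p = 0.00900, limma), a 1.57-fold difference, higher in 4 of 4 groups. For Npy the gap was 0.47 (SE 0.09, adjusted p = 0.0478, limma), also in 4 of 4 groups. From the deposited values, all 5 groups included, Gad1, Sst and Npy were called with adjusted p of 0.0239, 0.00355 and 0.0132 (limma), 3 of 8 members beside 2.66% of all features. Sst and Npy were also called without both the 24 h group and 12 h replicate 3, with adjusted p of 0.0167 and 0.0378 (limma), 2 of 8 members beside 1.99% of all features. They were called from the deposited values without the 12 h group too, beside 1.5% of all features. With quantile normalization and without the 24 h group Sst alone was called, beside 1.72% of all features, and Npy had an adjusted p of 0.0503 (limma). As labelled, 0 of 8 members were called under quantile normalization, normexp, slide as a further term or without 12 h replicate 3, beside 0.836%, 0.462%, 0.781% and 0.858% of all features.

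Over all arrays as labelled, slide and replicate number were partly bound together. Slide 1 held 4 of the 6 arrays of replicate 1, 3 of the 5 of replicate 2 and 1 of the 5 of replicate 3. Without the 24 h group, every array of replicate 3 lay on slide 2. Those of replicate 1 lay on slide 1, all but 1 array of untreated replicate 1. In those fits slide and the gap between replicates 3 and 1 were almost fully bound together. The same holds for the fits from the deposited values, the 24 h group included. There the column of 24 h replicate 1 holds an array of slide 1 and that of 24 h replicate 3 an array of slide 2. No fit from the deposited values had slide as a further term. With slide as a further term and without the 24 h group, the gap between replicates 3 and 1 was 0.61 (SE 0.15) for Sst and 0.44 (SE 0.18) for Npy, with adjusted p of 0.276 and 0.259 (limma), and 0 of 8 members were called beside 0.429% of all features. The RNA of untreated replicate 1 read 3.04 and 2.98 for Sst and -0.18 and -0.18 for Npy on the 2 slides. For other members the second array of this RNA differed from the first more, by -0.22 for Slc32a1, -0.18 for Gad1 and 0.34 for Calb2. Within slide 1, Npy read -0.28 in replicate 1 and 0.20 in replicate 2 at 2 h, and -0.23 and 0.29 at 6 h. Sst read 3.06 and 3.20 at 2 h and 2.91 and 3.30 at 6 h there. These readings do not bear on replicate 3. Within slide 2, the second array of untreated replicate 1 read 2.98 for Sst and -0.18 for Npy, beside 3.56 and 0.50 in untreated replicate 3. At 12 h replicates 2 and 3 read 3.15 and 3.55 for Sst and 0.24 and 0.10 for Npy there. At 24 h replicates 1 and 2 read 3.63 and 3.15 for Sst and 0.24 and 0.42 for Npy. All these are single readings, and no test was made on them. With normexp background correction and without the 24 h group, the adjusted p was 0.0686 for Sst and 0.0834 for Npy, and 0 members were called beside 0.869% of all features.

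**Figure D4:**
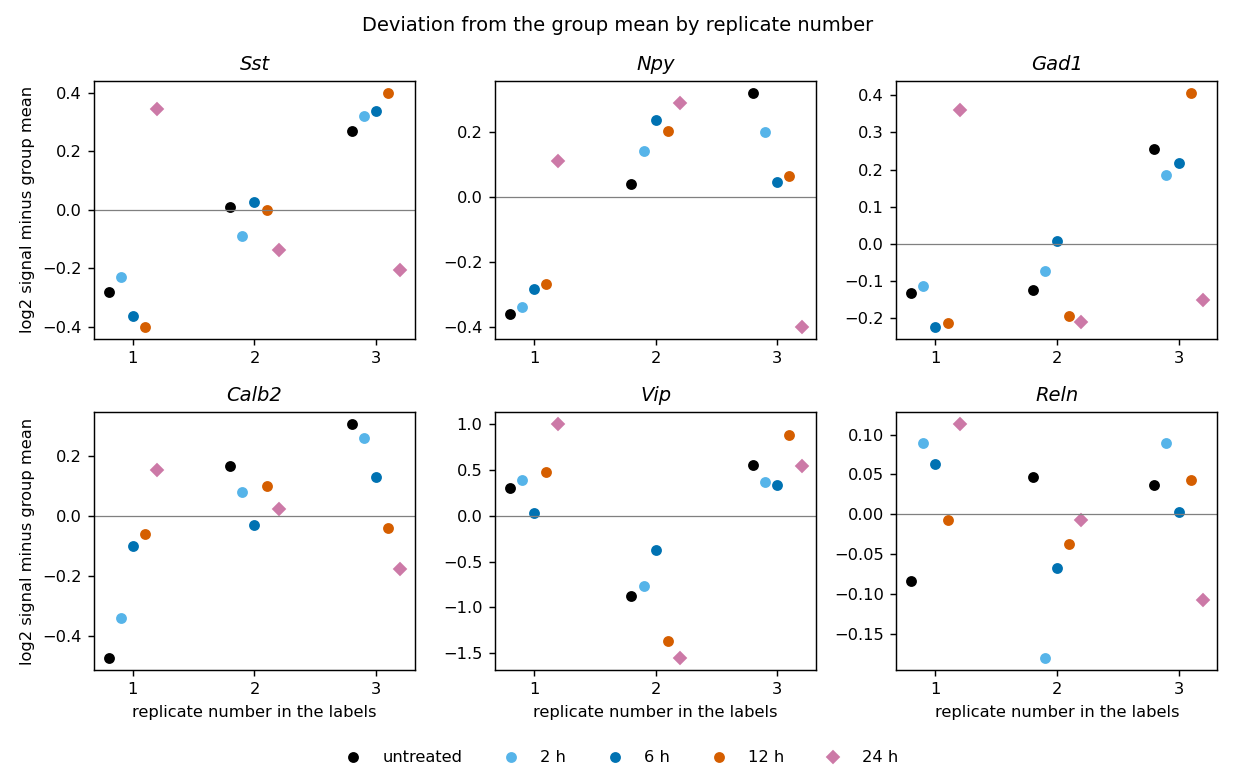
Level of 6 genes minus the mean of its group (log2), by the replicate number of the labels, with 1 point per group. In untreated, 2 h, 6 h and 12 h (circles) replicate 1 lies lowest for Sst, Npy, Gad1 and Calb2, at 24 h (diamonds) the order of replicates 1 and 3 is turned, Vip is lowest in replicate 2 of all 5 groups, and Reln shows no common order.

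When dim probes were kept, with 27324 features tested, Vip was the 1 of 9 members called by replicate number as labelled, beside 0.373% of all features, and Sst the 1 called without the 24 h group, beside 0.666%. Since the Vip probe was well above background on 0 of the 5 arrays of replicate 2, the size of its gap was not measured and is not given.

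Other interneuron genes and genes of other cell types were called by replicate number as well. Without the 24 h group, Dlx1, a transcription factor of interneuron development, was lower in replicate 3 than in replicate 1 by 0.60 (-0.60, SE 0.08, adjusted p = 0.00234, limma), and was called as labelled too (adjusted p = 0.0437). Cort (cortistatin), a peptide close to somatostatin, was higher in replicate 3 than in replicate 1 by 0.66 (SE 0.09), beside the 0.65 of Sst. The astrocyte gene Gfap was higher by 0.71 (SE 0.10) and the myelin gene Mbp by 0.96 (SE 0.15), while Pdgfra of oligodendrocyte precursors was lower (-0.62, SE 0.09). The endothelial gene Kdr was higher by 0.65 (SE 0.09), and Col1a1, a collagen of fibroblasts and mural cells, by 1.09 (SE 0.10). In that fit, beside 1.82% of all features, 1 of 13 interneuron transcription factors and 1 of 21 other interneuron subtype markers tested were called. Called too were 1 of 10 astrocyte, 3 of 7 oligodendrocyte lineage and 2 of 5 endothelial and mural markers. Of microglia, excitatory and pan-neuronal markers 0 of 4, 0 of 10 and 0 of 9 were called. As labelled, Dlx1 and Col1a1 were the genes called among the lists other than the members. With slide as a further term and without the 24 h group, Kdr and Col1a1 stayed called among these genes, and Dlx1, Cort, Gfap, Pdgfra and Mbp did not.

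Averaged over each list and centred on the group, the 8 members stood at -0.24 to -0.12 in replicate 1 and 0.12 to 0.22 in replicate 3 of the 4 groups. Endothelial and mural markers stood at -0.15 to -0.03 and 0.10 to 0.29, pan-neuronal markers at -0.09 to -0.00 and 0.05 to 0.20, oligodendrocyte markers at -0.20 to -0.00 and -0.05 to 0.13, and astrocyte markers at -0.05 to -0.01 and -0.06 to 0.10. Excitatory neuron markers stood at -0.21 to -0.00 and 0.01 to 0.11, microglia markers at -0.16 to 0.28 and -0.25 to 0.08, and Cajal-Retzius markers went the other way, at -0.06 to 0.13 in replicate 1 and -0.37 to -0.07 in replicate 3. Of the lists nearest in kind, other interneuron subtype markers stood at -0.11 to -0.06 in replicate 1 and 0.03 to 0.08 in replicate 3. Interneuron transcription factors stood at -0.10 to 0.04 and -0.03 to 0.07. For genes of GABA synthesis, uptake and breakdown the ranges were -0.03 to 0.05 and -0.03 to 0.06. In replicate 2 the members stood at -0.02 to 0.03, and endothelial and mural markers at -0.15 to -0.03. At 24 h as labelled, replicates 1 and 3 stood at 0.15 and -0.10 for the members and 0.19 and -0.08 for endothelial and mural markers. Other interneuron subtype markers stood at 0.09 and -0.01. Replicate 3 stood above replicate 1 there for astrocyte, microglia and Cajal-Retzius markers, interneuron transcription factors and the GABA list. In the 4 groups replicates 1 and 3 were almost fully bound to slide. The part of slide and of other cell types in the members' differences was not tested.

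Across the 15 samples the members did not vary as 1 block. Pearson's r was 0.87 between Gad1 and Sst, 0.75 between Gad1 and Slc32a1, 0.75 between Npy and Calb2, 0.67 between Sst and Calb2, 0.67 between Gad1 and Gad2 and 0.66 between Sst and Npy (Spearman's rho 0.79, 0.73, 0.72, 0.77, 0.63 and 0.60). Without 12 h replicate 3 the same r values were 0.87, 0.70, 0.76, 0.77, 0.56 and 0.69. Slc32a1 and Npy had an r of -0.09, and Reln reached at most 0.38, with Gad1. These are descriptions over samples that share groups, slides and scaling, taken from 28 pairs, and no test was made.

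The named genes most like each member were ranked by r over the 15 samples. Cox6a2 (0.96) and Thbs4 (0.95) were nearest to Sst, Anxa2 (0.95) and Myh8 (0.93) to Npy, Pycr1 (0.95) and Pkp4 (0.94) to Gad1, St18 and Lrch1 (both 0.91) to Gad2, and Dusp6 (0.95) and Scly (0.92) to Slc32a1. Pnoc, the prepronociceptin gene used as an interneuron subtype marker, was among those nearest to Calb2, at 0.90. Vps25 and Prelp were nearest to Pvalb, at 0.82, and Nedd9 to Reln, at 0.73. Without 12 h replicate 3 the r of Vps25 with Pvalb was 0.74, and the values for the genes named with Sst and Npy were the same to 2 decimals.

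Other genes of the pathway were not called under hydroxyurea either. Of 11 tested genes of GABA synthesis, uptake and breakdown, 0 were called at any time in either direction. Abat, the enzyme that breaks GABA down, differed from untreated by 0.05 over the mean of the 4 times (SE 0.10). Phgdh, which makes serine and is an astrocyte gene of the brain, was the 1 gene of that list at an unadjusted p under 0.05. It differed by 0.45 over the 4 times (SE 0.16, unadjusted p = 0.0160, limma, adjusted p = 1.00). Its untreated samples spread from 5.07 to 6.11 and its treated samples from 6.06 to 6.34, so the ranges overlapped.

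Of 13 tested interneuron transcription factors 0 were called. Dlx1 differed by -0.05 over the 4 times (SE 0.24), Dlx5 by -0.04 (SE 0.11) and Lhx6, which specifies somatostatin and parvalbumin cells, by -0.02 (SE 0.14). Of 21 other subtype markers tested 0 were called, and Calb1 (calbindin), Cck (cholecystokinin) and Nos1 (neuronal nitric oxide synthase) differed by -0.11 (SE 0.16), -0.03 (SE 0.17) and -0.05 (SE 0.21). Crh at 24 h (0.68, unadjusted p = 0.0496) and the potassium channel gene Kcnc1 at 6 h (0.68, unadjusted p = 0.0436) were the 2 of that list under 0.05 before adjustment at any single time (limma).

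Genes of peptide processing and of the peptides' receptors were likewise not called, 0 of 11 and 0 of 9. The carboxypeptidase gene Cpe differed by 0.09 over the 4 times (SE 0.08), the somatostatin receptor gene Sstr1 by -0.13 (SE 0.11) and the neuropeptide Y receptor gene Npy1r by -0.20 (SE 0.17), with -0.44 at 12 h (unadjusted p = 0.0574, limma). Of the Cajal-Retzius markers 4 of 9 were tested and 0 called, among them Tp73 at -0.05 (SE 0.11), while Lhx5, Ebf3 and Barhl2 were well above background on 0 arrays. Of 12 tested activity and neurotrophin genes 0 were called, with Bdnf at -0.15 (SE 0.12) and Egr1 at -0.19 (SE 0.15).

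Excitatory neuron markers gave 0 of 10 calls, with the vesicular glutamate transporter genes Slc17a7 at 0.04 (SE 0.12) and Slc17a6 at -0.12 (SE 0.10). Astrocyte markers also gave 0 of 10 calls. Their means were above untreated for 10 of 10 at 12 h, where the members' means were below for 7 of 8. At 12 h the mean was below untreated for 44.5% of all features, and 12 h replicate 3 stood apart from the other samples. Averaged over the list and centred over all samples, astrocyte markers stood at -0.16 to -0.03 untreated and 0.05 to 0.20 at 12 h, and the members at -0.21 to 0.25 and -0.20 to 0.06. Aldoc differed by 0.45 over the 4 times (SE 0.14, unadjusted p = 0.00638, limma, adjusted p = 1.00). Its untreated samples spread from 5.49 to 6.35 and its treated samples from 6.32 to 6.73, so the ranges overlapped. The glutamate transporter gene Slc1a2 differed by 0.33 (SE 0.14, unadjusted p = 0.0344, limma, adjusted p = 1.00).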

How the data were processed

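Each deposited scanner file held the intensity of 1 array's spots, read by the authors with Feature Extraction 11.5.1.1, per the file headers, which subtracts background from the processed signal. A deposited table held a score per spot, centred and scaled on each array; how the authors made it is not given in the sources. Control spots and spots with outlier flags were left out, spots of a probe were averaged, and log2 processed signals were taken relative to the array's 75th percentile, which removes any shift common to all genes. The brightest of a gene's probes was used. A feature was tested where all arrays of 1 or more groups read it well above background: 18173 features, with R 4.3.3 and limma 3.58.1, 1 fit over 15 samples, two-sided, Benjamini-Hochberg threshold 0.05; the script was tested on simulated data. The number of arrays limits the precision. Normexp (offset 50) used the median signals, since the scanner data used here held no mean signals. Probes were named through RefSeq accessions (18758 probes), 9 of 9 genes matching. The members and lists were chosen with earlier results of these data known. All members were named, and of each other list up to 4 genes by the smallest unadjusted p over the 4 times, any under 0.01 at a single time, and defining genes such as Abat and Lhx6; some list genes that the rule names are not reported here; genes of other cell types and lists named in the replicate comparison were chosen after their values were seen. Likeness named up to 3 genes a member. Alternatives covered background, scaling, filter, probe rule, slide, replicate block and each sample left out; a replicate number term was added after the data were seen.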

Additional observations from a re-analysis of the deposited data

How the results depend on the processing

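In the treatment comparisons 0 of the tested members were called under every alternative run, leaving out each sample in turn included (0 to 0 features and 0 to 0 members called), and the 1 count of features that moved was 4 at 12 h within slide 1. Main differences that rounded to -0.00 were not compared for sign. Over all runs these ranged at 2 h from -0.17 to 0.28 for Gad2, -0.13 to 0.12 for Slc32a1 and -0.16 to 0.34 for Sst. Sst at 24 h ranged from -0.18 to 0.13, and Reln over the 4 times from -0.04 to 0.05. Other differences from untreated that changed sign were all uncalled, and their causes were not tested. Under normexp they were Pvalb 0.16 at 6 h and 0.18 at 12 h, and Slc32a1 0.14 at 12 h, 0.05 at 24 h and 0.14 over the 4 times. With a standard score per array they were Pvalb -0.07 at 2 h and -0.03 over the 4 times, Gad1 0.01 and Sst 0.04 at 6 h, Gad2 -0.02 at 12 h and Slc32a1 0.01 over the 4 times. The deposited values, with or without the replicate block, gave Pvalb -0.09 at 2 h and -0.05 over the 4 times, Gad1 0.02 and Sst 0.05 at 6 h, Gad2 -0.02 at 12 h, and Slc32a1 0.02 and Sst 0.01 over the 4 times. Slide as a block gave Gad1 0.04 and Sst 0.06 at 6 h and Gad2 -0.01 at 12 h. Within slide 1 the values were Slc32a1 -0.06 and Pvalb 0.18 at 6 h, Calb2 0.08 and Pvalb 0.15 at 12 h, and Slc32a1 0.05 and Calb2 0.05 at 24 h. Within slide 2 they were Gad1 0.08 and Npy 0.10 at 2 h, Gad1 0.19, Sst 0.34 and Pvalb 0.05 at 6 h, Gad1 0.05, Sst 0.08 and Npy 0.01 at 12 h, Npy 0.17 and Calb2 0.07 at 24 h, and Gad1 0.07, Slc32a1 0.04, Sst 0.22 and Npy 0.06 over the 4 times. Untreated replicate 1 from its first array alone gave Calb2 0.04 at 24 h, and from its second alone Gad1 0.02 at 6 h and Slc32a1 0.02 and Calb2 -0.05 over the 4 times. Without the 12 h group Slc32a1 was 0.01 over the 4 times.

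Leaving out each sample in turn, the ranges of the differences that crossed 0 were as follows. At 2 h they were Gad1 -0.18 to 0.04, Gad2 -0.17 to 0.12, Slc32a1 -0.08 to 0.06, Sst -0.16 to 0.14, Npy -0.30 to 0.05, Calb2 -0.15 to 0.25 and Pvalb -0.24 to 0.24. At 6 h they were Gad1 -0.11 to 0.12, Slc32a1 -0.01 to 0.15, Sst -0.19 to 0.16, Npy -0.31 to 0.03, Calb2 -0.18 to 0.22 and Pvalb -0.29 to 0.14. At 12 h they were Gad1 -0.24 to 0.09, Gad2 -0.15 to 0.15, Sst -0.34 to 0.06, Npy -0.32 to 0.01 and Calb2 -0.34 to 0.05. At 24 h they were Slc32a1 -0.18 to 0.15, Sst -0.18 to 0.13, Npy -0.23 to 0.15 and Calb2 -0.25 to 0.14. Over the mean of the 4 times they were Gad1 -0.13 to 0.06, Slc32a1 -0.10 to 0.05, Sst -0.18 to 0.10, Npy -0.29 to 0.05, Calb2 -0.23 to 0.16, Pvalb -0.21 to 0.22 and Reln -0.04 to 0.02. The Pvalb log2 difference, 24 h against untreated, ranged from 0.23 to 0.69, and its unadjusted p fell to 0.0449 without 24 h replicate 1, 0.0413 with normexp and 0.0499 with the replicate block, with no adjusted p under 0.999 (limma).

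In the replicate number comparison the features called numbered 151 as labelled, 330 without the 24 h group, 361 without that group and 12 h replicate 3, 484 from the deposited values, 273 from these without the 12 h group, 313 with quantile normalization and without the 24 h group, 84 with normexp as labelled, and 78 with slide as a further term and without the 24 h group. The members called numbered 0 as labelled, 2 without the 24 h group, 2 also without 12 h replicate 3, 3 from the deposited values, 2 from these without the 12 h group, 1 (Sst) with quantile normalization without the 24 h group, and 1 with no filter on dim probes, which was Vip (not well above background in replicate 2) as labelled and Sst without the 24 h group. The replicate numbers were checked as pairs: samples of 1 number deviated from their group means with correlations of -0.29 to 0.23 for replicate 1, 0.01 to 0.28 for replicate 2 and -0.42 to 0.42 for replicate 3. Without 24 h the lowest were 0.01, 0.13 and 0.10, and in the deposited values they were -0.08, -0.06 and 0.09 over all groups, so not every pair passed 0.1 and the numbers were not taken as pairs. With the replicate block 0 features and 0 members were called in each treatment comparison. Vip was tested for treatment with no filter on dim probes alone, where 0 of 9 members were called in each comparison. With the probe's signal near background, Vip and Pvalb are the members whose values depth of signal limits most.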
